A study of Solanum lycopersicum with 86 samples.

Results

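The genes described here form a stretch of tomato chromosome 4 that was singled out because part of it was expressed differently in the cultivars Moneymaker and M82. The members are all listed genes with identifiers from Solyc04g016260 to Solyc04g025510 in numeric order whose mean value over all libraries was at least 1. There were 62 such genes among 74 listed in that range, the other 12 falling under the mean of 1, and they were 62 of 19029 genes that passed the same limit in the whole table of 23050. The stretch was chosen by the measured difference between the cultivars in these libraries, so that difference is given below as a description without a test. The label holds for a minority of members: 8 of the 62 differed by at least 1 log2 unit between the cultivars, and 54 did not.

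A Solyc identifier holds the chromosome and a running number along it, so neighbouring numbers are usually neighbouring genes. In tomato, crossing over is rare in the long stretches of heterochromatin around the centromeres, and genes there tend to be inherited together, so that cultivars can carry different versions of a whole run of genes. The deposited table does not pair identifiers with gene names and 0 of its identifiers were found in the reference gene table, so the members are given by identifier, without a name or a role.

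The samples are messenger RNA from wild-type seedlings, taken from the lowest internode, the stem segment above the cotyledons, or from its pith, the innermost tissue. Plants received far-red light on top of white light (FR, a ratio of red to far-red light of 0.21) or white light alone (WL, 200 PAR in both), a contrast that plants read through phytochromes as the presence or absence of neighbours. Moneymaker gave 46 libraries (internode 19 FR and 13 WL, pith 8 FR and 6 WL) and M82 gave 40 (internode 11 FR and 15 WL, pith 5 FR and 9 WL), in 24 groups of 2 to 6. Harvests fell 6, 24, 30 and 48 h into the treatment for internodes, and 30 and 48 h into it for pith. Plants were kept at 20 °C with 16 h of light and 8 h of dark.

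Values are read counts that the authors multiplied by 1 factor per library, and differences are between means of log2(value + 1), a scale that understates the change of low genes. Depth was 0.769 to 22.1 M reads per library with a median of 2.98 M. A count of 0 in an M82 library allows a value of up to 0.215 to 2.79 depending on its depth (the worth of 3 reads, median 1.06, counting error only). These are bulk samples, in which fewer cells of a type and less RNA per cell cannot be told apart.

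Several libraries went against their cultivar label. On 23 genes outside chromosome 4 that differed by at least 2 log2 units between the cultivars, each library was placed on a scale where 0 is the M82 mean and 1 the Moneymaker mean, leaving the library itself out of both means. By this measure 10 libraries lay nearer the other cultivar. The 4 labelled Moneymaker were FR pith replicate 3 at 48 h (-0.10), WL internode replicate 3 at 30 h (-0.28) and at 48 h (-0.08), and FR internode replicate 8 at 48 h, which was intermediate at 0.46. Replicate 7 of that group was intermediate too, at 0.59, nearer its own cultivar, and is kept among the libraries that match their label, the others of which lay at 0.921 or above in Moneymaker. The 6 labelled M82 were WL internode replicate 1 at 6, 24 and 30 h, WL internode replicate 5 at 6 h, and WL pith replicate 1 at 30 and 48 h, and they lay between 1.02 and 1.11. All libraries were kept under their labels, and the main counts are also given without these 10, which leaves 42 Moneymaker and 34 M82 libraries.

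Averaged over the 12 conditions of light, tissue and time, 6 members were at least 1 log2 unit higher in Moneymaker and 2 were at least 1 log2 unit lower. Among all tested genes 0.231% were that much higher and 0.289% that much lower. In either direction it was 12.9% of the members and 0.52% of all genes (99 genes), a gap that the choice of the stretch fixes and from which nothing is read. The same 8 members had the same sign in all 12 conditions (6 higher and 2 lower in Moneymaker). The share of all genes with the same sign in all 12 was not counted. The 8 were picked for a large mean over these same conditions, so nothing is read from their constant sign. Without the 10 libraries 7 members were higher and 3 lower, beside 0.289% and 0.426% of all genes (0.715% in either direction).

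The largest difference was in Solyc04g016550, which had few or no reads in most M82 libraries. Its values ran from 0 to 32.0 in Moneymaker with a median of 17.1, and from 0 to 38.9 in M82 with a median of 0.139. It was at 0 in 1 of 46 Moneymaker libraries and in 20 of 40 M82 libraries, with 3150 and 579 reads in all. The difference of the means was 2.83 ± 0.30 log2 units (SE), and 3.56 without the 10 libraries. With every library kept the cultivars overlapped, and the highest single value, 38.9, came from the M82 WL pith library at 30 h (replicate 1) that went against its label. Without the 10 libraries the values ran from 8.37 to 32.0 in Moneymaker and from 0 to 8.24 in M82, so all 42 Moneymaker libraries lay above all 34 of M82. It was the 1 member whose ranges did not overlap then, against 0 members with all libraries; over all genes these shares were 0.0473% and 0%.

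Solyc04g018080 had a similar pattern. Its values ran from 0 to 45.4 in Moneymaker (median 13.9) and from 0 to 24.98 in M82 (median 0.426), with 2972 and 456 reads. The difference was 2.66 ± 0.29 log2 units, and 3.38 without the 10 libraries, where 41 of 42 Moneymaker libraries lay above the M82 maximum of 5.17. The sets touched there at a single Moneymaker library, at 5.15.

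Members that were lower in Moneymaker were expressed in both cultivars. Solyc04g018100 ran from 3.97 to 63.4 in Moneymaker (median 10.96) and from 6.95 to 96.1 in M82 (median 47.0), and was at 0 in no library. Its difference was -1.65 ± 0.19 log2 units, and -2.12 without the 10 libraries, where the Moneymaker maximum was 24.7 and 32 of 34 M82 libraries lay above it. Solyc04g016530 ran from 6.63 to 60.1 in Moneymaker (median 23.5) and from 19.9 to 90.0 in M82 (median 50.7). Its difference was -1.05 ± 0.12, and -1.31 without the 10 libraries, with 33 of 34 M82 libraries above the Moneymaker maximum of 30.7. A difference near 1 log2 unit is at the limit used here, and with replicate number as a block Solyc04g016530 fell just short of it, at -0.97.

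The other 4 of the 8 were higher in Moneymaker and are named because they complete the count, a choice made after their values were seen. Solyc04g017620 had a median of 12.8 in Moneymaker and 1.16 in M82 (difference 2.28 ± 0.26). Solyc04g018085 had medians of 6.47 and 0 (2.13 ± 0.22), Solyc04g016560 had 4.07 and 0 (1.81 ± 0.22), and Solyc04g024960 had 2.82 and 0 (1.50 ± 0.18), Moneymaker before M82 in each case. The last 3 were low throughout. Moneymaker libraries held 1527, 941 and 599 reads for them in all, with 2, 4 and 4 of 46 at 0, and M82 libraries held 208, 120 and 61 reads, with 23, 26 and 29 of 40 at 0. The counting of reads shared by near-identical copies or overlapping genes was not described in the sources used here, so neighbours such as Solyc04g018080 and Solyc04g018085 cannot be taken as independent measurements.

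**Figure D1:**
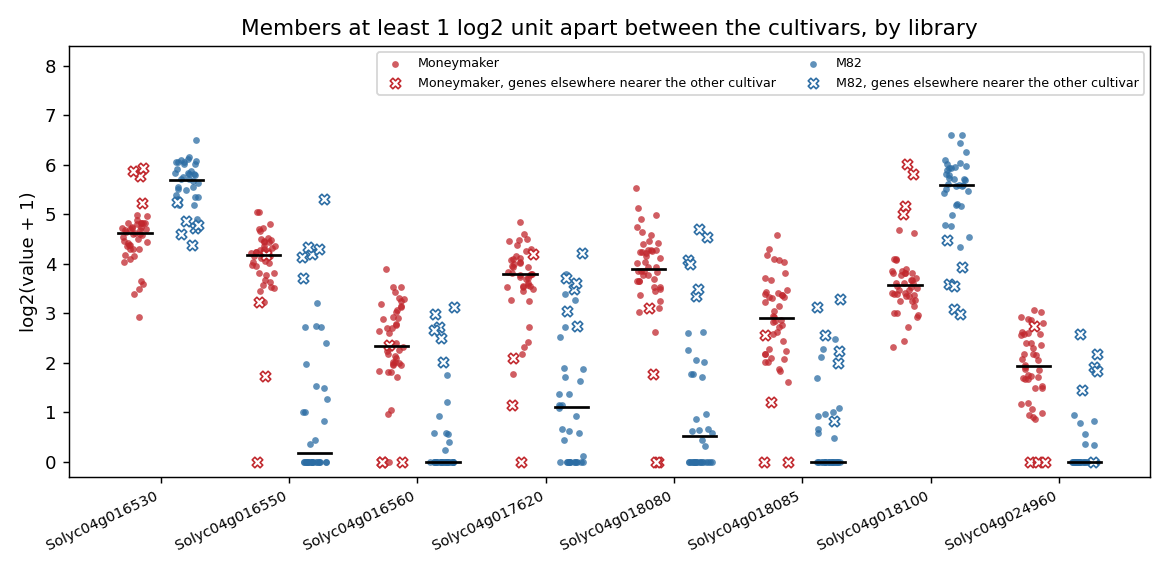
Values of the 8 members in every library as log2(value + 1), Moneymaker left of M82 for each gene. Dots are libraries near their own cultivar and crosses the 10 nearer the other cultivar by genes outside chromosome 4; black lines are medians over all libraries of a label. The medians are 17.1 and 0.139 (before the log) for Solyc04g016550, and most crosses lie in the range of the other cultivar's dots.

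The size of the difference varied between conditions. Its sign did not, and as said above nothing is read from that. Solyc04g016550 differed by 1.91 ± 1.21 log2 units in WL internodes at 24 h, the lowest of the 12, and by 4.04 ± 1.09 in FR internodes at 30 h, the highest. In the first of these conditions Moneymaker had 10.9, 17.9 and 17.9 and M82 had 0 and 17.4, and the higher M82 library is among the 10. In the second, Moneymaker had 12.7, 16.3 and 24.2 and M82 had 0, 0 and 0.353. Solyc04g018080 differed by 0.79 ± 1.16 in WL internodes at 24 h, where Moneymaker had 5.15, 12.7 and 17.9 and M82 was again split, at 0.95 and 22.2. In FR internodes at 30 h Moneymaker had 10.5, 18.5 and 28.8, and all 3 M82 libraries were at 0.

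Solyc04g018100 differed least in WL internodes at 6 h (-0.58 ± 0.74) and most in FR pith at 30 h (-2.56 ± 0.74). At 6 h under WL, Moneymaker had 13.03 and 13.04, and M82 had 6.95, 7.44, 47.1 and 58.8. The 2 low M82 libraries are among the 10. In FR pith at 30 h, Moneymaker had 5.63, 6.55, 9.29 and 10.5, and M82 had 46.2 and 55.5, with no overlap.

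Counted in single conditions, 7 to 15 of the 62 members were at least 1 log2 unit apart, always a larger share than among all genes, as the choice of the stretch would give. In FR internodes it was 15 members at 6 h, 14 at 24 h, 11 at 30 h and 10 at 48 h, beside 9.69%, 6.79%, 5.31% and 1.76% of all genes. In WL internodes it was 7, 8, 11 and 8 members at those times, beside 4.27%, 2.74%, 4.31% and 3.99% of all genes. In pith it was 14 members at 30 h and 9 at 48 h under FR (10.4% and 3.52% of all genes), and 12 at each time under WL (5.29% and 7.27%). Without the 10 libraries, which leaves WL internodes at 24 h with a single M82 library, it was 15 members at 6 h, 12 at 24 h, 13 at 30 h and 13 at 48 h in WL internodes (9.63%, 7.04%, 6.34% and 6.11% of all genes). It was 11 in FR internodes at 48 h (1.95%), 11 in FR pith at 48 h (3.34%), and 15 at 30 h and 14 at 48 h in WL pith (6.51% and 7.63%), and the other 4 conditions hold none of the 10. Groups held 2 to 6 libraries, and the share of all genes beyond 1 log2 unit differed between conditions by several fold.

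Most members did not differ by that much. Of the other 54 members, 7 lay between 0.5 and 1 log2 unit (4 higher and 3 lower in Moneymaker) and 47 lay under 0.5, of which 40 were under 0.25. Over all 62, 30 differences were positive and 32 negative. When the 10 libraries were left out, 5 lay between 0.5 and 1 and 47 under 0.5, of which 34 were under 0.25, and 32 were positive and 30 negative. With all libraries kept, the median over the 62 members was -0.02, beside a median of -0.00069 over all tested genes. Without the 10 libraries the median of the members was 0.0079. Members had mean values of 1.07 to 189.7 with a median of 16.7, and the median of all tested genes was 20.

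The places of the 8 differing members along the stretch are given as a description. Counted in identifier order, 7 of them fell within 18 consecutive members, from Solyc04g016530 at rank 17 to Solyc04g018100 at rank 34, and the eighth, Solyc04g024960, was at rank 50. The ends of this run were set by these members after their values were seen, so nothing is read from it. The first 16 members held none. With the 10 libraries left out the run held 8 and the first 16 members again none; the 2 members added were Solyc04g016540 in the run (-1.05) and Solyc04g025450 at rank 61 (1.10), named after their values were seen. The 18 members of that run included 11 that were under 1 log2 unit apart, among them both members of the clock comparison below.

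The rows of the deposited table do not follow identifier order on chromosome 4. In the table the 62 members stood in 2 runs of 37 and 25, with 65 rows of other chromosome 4 identifiers listed between them. Of the first 37 members, 7 (18.9%) were at least 1 log2 unit apart, and of the last 25, 1 (4%). Of the 45 tested rows in between, 6 (13.3%) were, all higher in Moneymaker, although their identifiers lie outside the stretch. In the 60 tested rows before the first run 0 were, and in the 60 rows after the second 1 (1.67%) was. The counts with the 10 left out were 8 of the first 37 members (21.6%) and 2 of the last 25 (8%), and 6, 0 and 1 for the other rows, as before. The sources used here do not say what the order of the table follows.

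Chromosome 4 without the stretch had 15 of 1521 genes (0.986%) at least 1 log2 unit apart, 9 higher and 6 lower in Moneymaker, and without the 10 libraries 21 (1.38%). Chromosomes 1 to 12 other than chromosome 4 had from 0.146% on chromosome 7 to 1.21% on chromosome 12, and identifiers numbered chromosome 0 had 0 of 313. Clusters of differing genes on other chromosomes were not searched for here.

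**Figure D2:**
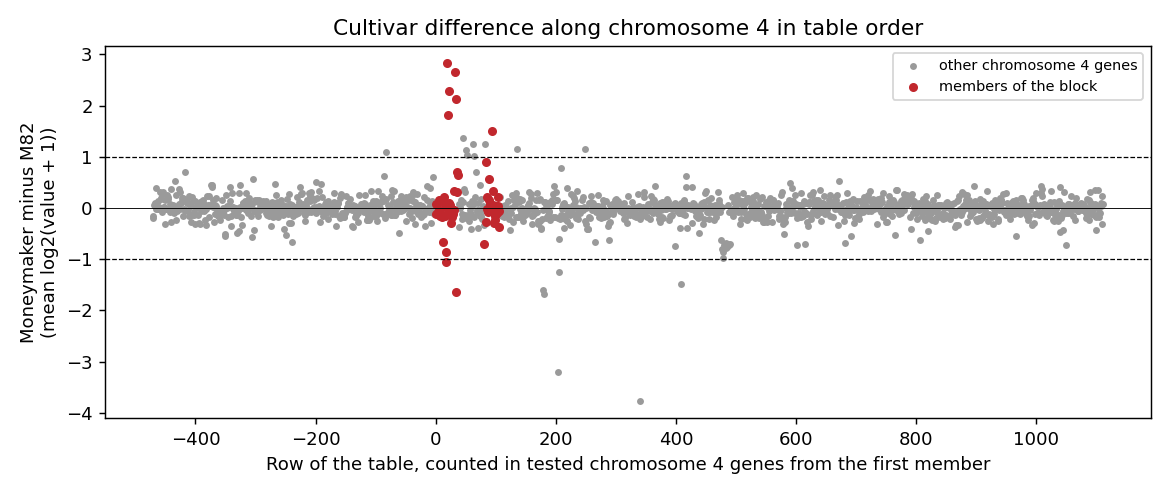
Difference between cultivars (Moneymaker minus M82, mean log2(value + 1)) for each tested chromosome 4 gene in the order of the table, counted from the first member. Red dots are the 62 members, grey dots other genes of the chromosome, and dashed lines mark 1 log2 unit; 8 members lie outside the dashed lines, and the 6 grey dots above 1 between the red runs are rows listed between them.

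At the edges the rule left little contrast. Solyc04g016260, the first member, differed by 0.08 log2 units, and Solyc04g016250, the nearest tested identifier before it, by -0.01. Solyc04g025510, the last member, differed by -0.70 at a low level (0.527 ± 0.809 in Moneymaker and 1.77 ± 1.91 in M82, SD), and Solyc04g025530, the next tested identifier, by -0.33. Just inside the limit on the mean, Solyc04g025430 had 1.07, and just outside it Solyc04g025005 had 0.841 (1.25 ± 1.57 in Moneymaker, 0.377 ± 0.835 in M82).

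Each library was also placed on the 8 members, with 0 as the M82 mean and 1 as the Moneymaker mean of the libraries near their own cultivar elsewhere. Here the library itself was not left out of the means, and the 8 were picked for their difference between the cultivars. The matching libraries therefore centre on 0 and 1 by construction. The 42 Moneymaker libraries that matched their label lay between 0.778 and 1.27 with a median of 0.989, and the 34 matching M82 libraries between -0.203 and 0.476 with a median of -0.0742. Of the 4 Moneymaker libraries that went against their label outside chromosome 4, 3 lay between -0.148 and 0.115, among those of M82, and the intermediate one lay at 0.848. Of the 6 such M82 libraries, WL pith replicate 1 at 48 h lay at 0.588, between the ranges of the matching libraries of both cultivars, and the highest was at 0.992. On the 8 members 9 of the 10 libraries lay on the same side of 0.5 as on genes elsewhere in the genome, the exception being Moneymaker FR internode replicate 8 at 48 h. The cause was not tested.

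Among the 34 matching M82 libraries, the 5 highest on the 8 members lay at 0.268 to 0.476, while the other 29 lay at or below 0.202. The number 5 was set by hand, and the next library, at 0.202, was not far below. The same 5 were the highest outside chromosome 4, at 0.0879 to 0.243, with the other 29 at or below 0.00114. Solyc04g016550 had values of 2.93 to 8.24 in those 5 libraries and 0 to 5.61 in the other 29. Not every member was raised in the 5: Solyc04g016560 ran from 0 to 1.29 in them and from 0 to 2.38 in the other 29. The 5 libraries were FR internode replicate 5 at 6 h, FR internode replicates 2 and 4 at 48 h, FR pith replicate 1 at 48 h and WL internode replicate 2 at 48 h. Whether they held RNA of both cultivars was not tested.

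**Figure D3:**
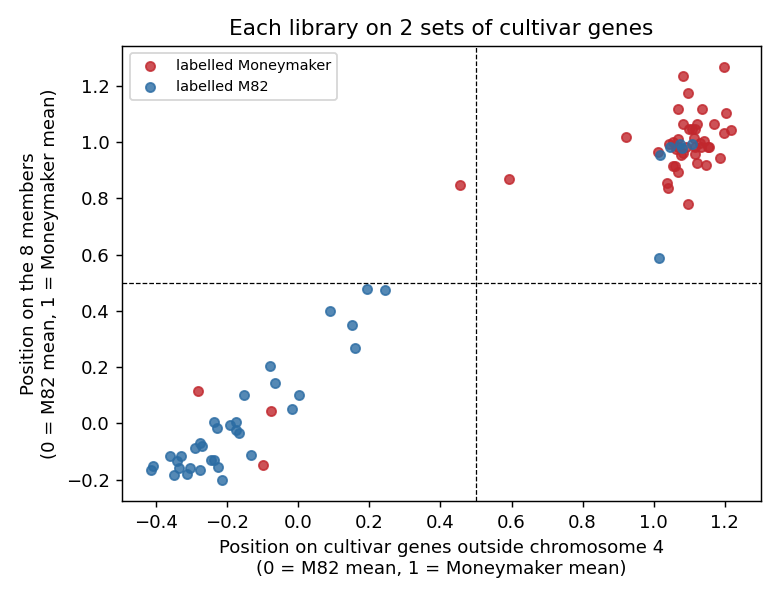
Each dot is a library, labelled Moneymaker (red) or M82 (blue), by its position on 23 cultivar genes outside chromosome 4 (x axis) and on the 8 members (y axis), where 0 is the M82 mean and 1 the Moneymaker mean. The 6 blue dots at the right (1.02 to 1.11) and the 3 red dots at the left lie with the other cultivar on the x axis; the 3 red dots also do so on the y axis, where the blue dots run from 0.588, between the cultivars, to 0.992.

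The response of the stretch to far-red light was tested next, a contrast that the rule did not use. No member passed an adjusted p of 0.05 in any of the 4 FR tests, by limma with Benjamini-Hochberg adjustment over the 19029 genes. In Moneymaker internodes 0 of 62 members were called, with 4 at an unadjusted p below 0.05, beside 302 called genes in all (1.59%). In M82 internodes 0 were called, with 1 at an unadjusted p below 0.05, beside 136 genes (0.715%). In Moneymaker pith 0 were called, with 4 unadjusted, beside 96 genes (0.504%). In M82 pith 0 were called, with 9 unadjusted, beside 706 genes (3.71%). Those shares of all genes are at an adjusted p below 0.05. At an unadjusted p below 0.05 there were 2396, 1547, 1506 and 4075 of the 19029 genes, in the order given.

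Read against these shares, counts of 0 are no result about the members. Limma again called 0 members in each of the 4 without the 10 libraries. The edgeR quasi-likelihood test on the recovered reads also called 0 members in each. DESeq2 called 0 in both Moneymaker tests, 1 in M82 internodes (beside 231 genes in all) and 2 in M82 pith (beside 992 genes in all). The 1 was Solyc04g018080 (log2 fold change -3.37, DESeq2 adjusted p = 0.0195), which ran from 0 to 5.17 under FR (median 0, n = 11) and from 0 to 24.98 under WL (median 0.832, n = 15); the WL set holds 4 of the 10 libraries. The members' differences spread around 0 with medians of 0.05 in Moneymaker internodes, -0.03 in M82 internodes, and -0.13 in the pith of each cultivar. The median SE of a member was 0.24, 0.26, 0.35 and 0.36 log2 units in that order.

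The member nearest to a call was Solyc04g016260 in M82 pith, with a difference of -1.13 ± 0.36 (limma, adjusted p = 0.0551). It passed with replicate number as a block (-1.17, limma adjusted p = 0.0314) and by DESeq2 (-1.14, adjusted p = 0.0413). M82 pith had 5 FR libraries, and leaving out single M82 pith libraries moved the count of members between 0 and 1.

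By limma the 8 members at least 1 log2 unit apart between the cultivars did not pass in any light, tissue or clock test. Solyc04g016550 in Moneymaker internodes ran from 8.37 to 26.9 under FR (median 17.3, n = 19) and from 2.31 to 25.5 under WL (median 17.9, n = 13). In M82 internodes it ran from 0 to 8.24 under FR (median 0, n = 11) and from 0 to 19.2 under WL (median 0.277, n = 15). The FR minus WL differences were 0.22 ± 0.50 in Moneymaker and -0.72 ± 0.55 in M82 (limma, adjusted p = 0.897 and 0.846). The high WL values in M82 belong to libraries among the 10. Solyc04g018100 changed by -0.17 ± 0.32 in Moneymaker internodes and 0.61 ± 0.35 in M82 internodes (limma, adjusted p = 0.872 and 0.712). Over the 8, the smallest adjusted p in the 4 FR tests was 0.478.

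Pith was compared with whole internodes at 30 and 48 h, averaged over light. The internode samples contain pith, so a difference is diluted. In Moneymaker 1 member was lower in pith and 0 were higher, beside 0.662% of all genes called lower (1.12% in either direction), with 6 members at an unadjusted p below 0.05. In M82 2 members were lower and 0 higher, beside 2.46% of all genes lower (2.73% in either direction), with 8 unadjusted. At an unadjusted p below 0.05 there were 2053 of the 19029 genes in Moneymaker and 2084 in M82. By limma both counts of called members are close to the shares of all genes and are no result about the stretch. Without the 10 libraries the count was 1 in Moneymaker and 3 in M82. There Solyc04g016480, named after its values were seen, was added as higher in pith in M82 (0.65, limma adjusted p = 0.00823). The matching counts of all genes are not given here.

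Solyc04g024840 was lower in pith in both cultivars. In Moneymaker it ran from 6.88 to 29.6 in pith (median 18.3, n = 14) and from 16.4 to 52.3 in internodes (median 31.6, n = 17). In M82 it ran from 8.19 to 27.6 in pith (median 13, n = 14) and from 15.6 to 43.8 in internodes (median 26.3, n = 15). The tissues overlapped in both cultivars, with the pith libraries in the lower part of the range. The difference was -0.82 ± 0.19 in Moneymaker and -0.93 ± 0.20 in M82 (limma, adjusted p = 0.0108 and 0.00154), and -0.83 and -0.96 without the 10 libraries (limma, adjusted p = 0.0226 and 0.0012). Between cultivars this member differed by 0.34 log2 units.

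Solyc04g016330 was called in M82 alone. Its values there ran from 8.50 to 24.8 in pith (median 13.4) and from 13.6 to 28.4 in internodes (median 19.9), with overlap. The difference was -0.55 ± 0.14 (limma, adjusted p = 0.0153), and -0.56 without the 10 libraries (limma, adjusted p = 0.0211). It lost the call without M82 FR pith replicate 1 at 30 h (-0.48, limma adjusted p = 0.0698) or replicate 2 at 48 h (-0.50, limma adjusted p = 0.0501). In Moneymaker, where it was not called, it ran from 11.4 to 27.9 in pith (median 14.1) and from 10.1 to 29.4 in internodes (median 20.1). These medians are near those of M82. A pith effect that differed between the cultivars was not shown for any member (limma, smallest adjusted p = 0.994). By edgeR and by DESeq2 the M82 count was 5, the added 3 all higher in pith, beside 467 and 655 of the 19029 genes. By both tools the share of members was larger than that of all genes, a gap that was not tested. The count was 4 without the 12 libraries against their cultivar or clock label, and the count of all genes there is not given here.

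In the clock comparison 2 of the 62 members were called in each cultivar, a smaller share than among all genes, so the count is no result about the stretch. Samples at 6 and 30 h were taken at the same hour of consecutive days, as were those at 24 and 48 h. These pairs of times were compared in internodes, averaged over light. The 6 and 30 h samples were also earlier in the treatment on average, so hour of day is not fully separated from age and length of treatment. In each cultivar 1 member was higher and 1 lower at 6 and 30 h. In Moneymaker 4.19% of all genes were called higher and 5.68% lower (9.87% in all), and in M82 3.81% higher and 5.28% lower (9.09%). At an unadjusted p below 0.05 there were 9 members in Moneymaker and 4 in M82, beside 3785 and 3327 of the 19029 genes. By edgeR and by DESeq2 the count was also 2 in each cultivar. Beside it stood 1870 and 1771 genes by edgeR, and 2134 and 1974 by DESeq2, Moneymaker before M82. Leaving out the 10 libraries gave 2 in Moneymaker and 3 in M82, for which the counts of all genes are not given here. Solyc04g017680, named after its values were seen, was added in M82 as higher at 6 and 30 h (0.53, limma adjusted p = 0.0376).

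Solyc04g017690, an abundant member, was higher at 6 and 30 h. In Moneymaker it ran from 177 to 368 at 6 and 30 h (median 238, n = 14) and from 57.2 to 194 at 24 and 48 h (median 120.2, n = 18). In M82 it ran from 161 to 450 at 6 and 30 h (median 250.4, n = 15) and from 70.1 to 217 at 24 and 48 h (median 123, n = 11). The sets overlapped only slightly. The difference was 1.01 ± 0.14 in Moneymaker and 1.16 ± 0.16 in M82 (limma, adjusted p = 5.6e-08 and 2.1e-08), and 0.99 and 1.17 without the 10 libraries.

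Solyc04g017720 moved the other way, at a low level. In Moneymaker it ran from 0 to 4.24 at 6 and 30 h (median 1.50) and from 0.294 to 25.1 at 24 and 48 h (median 8.48). In M82 it ran from 0 to 7.19 (median 1.80) at 6 and 30 h and from 5.82 to 30.7 (median 10.8) at 24 and 48 h. The lowest Moneymaker value at 48 h, 0.294, came from WL internode replicate 1, 1 of 2 libraries that lay nearer the other times on 84 clock genes outside chromosome 4. The other is M82 WL pith replicate 6 at 48 h. The difference was -1.75 ± 0.29 in Moneymaker and -2.29 ± 0.32 in M82 (limma, adjusted p = 3.9e-06 and 5.8e-08), and -1.56 and -2.55 without the 10 libraries.

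Pith, which the clock tests did not use, was sampled at 30 and 48 h. Solyc04g017690 averaged 259 ± 38.3 at 30 h and 140.1 ± 36.2 at 48 h in Moneymaker FR pith (SD, n = 4 each), and 212 ± 17.4 and 91.8 ± 27.6 in WL pith (n = 3 each). In M82 FR pith it averaged 290 ± 87.0 at 30 h (n = 2) and 138 ± 31.0 at 48 h (n = 3), and in WL pith 233 ± 92.2 (n = 4) and 153 ± 67.1 (n = 5). This last group holds replicate 6, which lay with the 30 h libraries on the clock genes, and replicate 5, which was intermediate (0.43 on a scale from 0 at 24 and 48 h to 1 at 6 and 30 h). Without the libraries against their cultivar or clock label M82 WL pith averaged 264 ± 82.03 at 30 h and 175 ± 77.9 at 48 h (n = 3 each). Solyc04g017720 averaged 2.27 ± 2.31 at 30 h and 4.88 ± 3.11 at 48 h in Moneymaker FR pith, and 1.25 ± 1.55 and 7.25 ± 2.18 in M82 WL pith; without those libraries the M82 WL pith values were 1.67 ± 1.60 and 7.89 ± 2.65, and the Moneymaker FR pith value at 48 h was 6.09 ± 2.37 (n = 3). Both genes had the same direction in pith as in internodes in these groups, a difference that was not tested there. With only 30 and 48 h sampled in pith, hour of day cannot be told apart there from age or length of treatment.

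**Figure D4:**
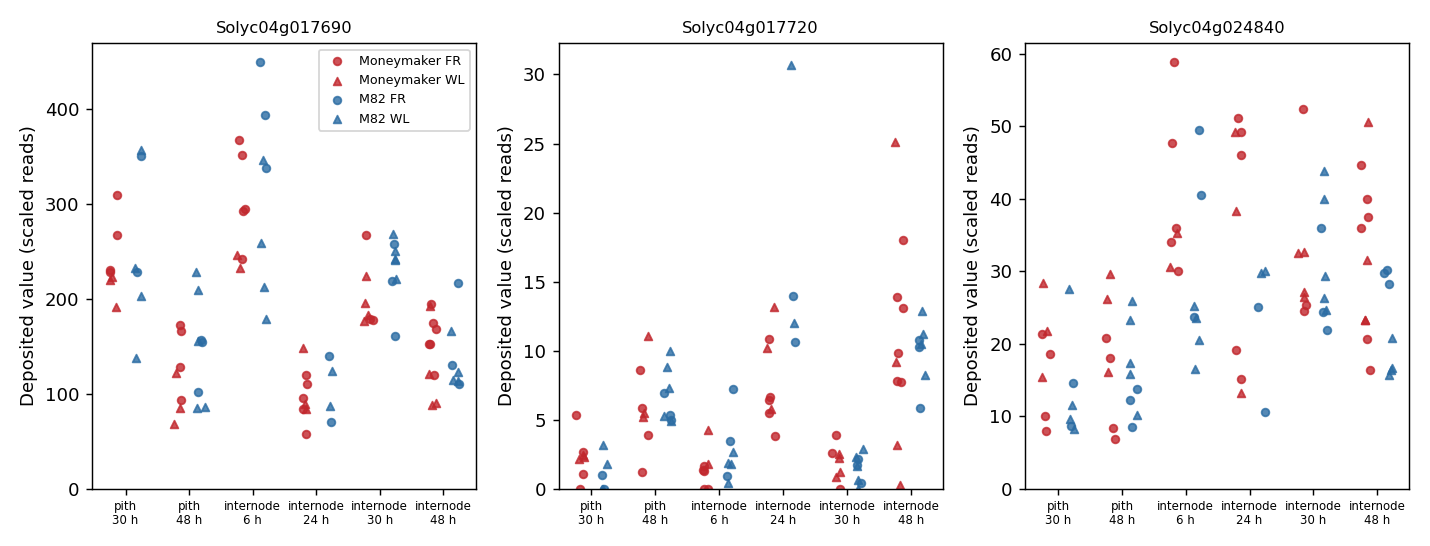
Deposited values of 3 members by tissue and time, Moneymaker in red left of M82 in blue, circles FR and triangles WL, each mark a library. Solyc04g017690 lies higher at 6 and 30 h than at 24 and 48 h, Solyc04g017720 lower (medians 238 against 120.2, and 1.50 against 8.48, in Moneymaker internodes), and Solyc04g024840 lower in pith than in internodes (medians 18.3 and 31.6 in Moneymaker).

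The test of whether the cultivars responded differently found no member. The 4 interactions tested were FR in internodes, FR in pith, pith against internode, and time of day, each as the effect in Moneymaker minus the effect in M82. By limma 0 members and 0 genes in all (0%) were called in each, with 5, 4, 2 and 4 members, and 496, 1412, 875 and 576 genes, at an unadjusted p below 0.05. Leaving out the 10 libraries also gave 0 members in each. By edgeR the counts were 0 throughout, and DESeq2 called 0 members in each and 0, 2, 1 and 1 genes. A difference in response between cultivars was therefore not shown for the clock members, for Solyc04g024840 or for Solyc04g016330.

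Among the 8 members the interaction of FR with cultivar in internodes was at an unadjusted p below 0.05 for 2, Solyc04g018080 (1.61 ± 0.71) and Solyc04g024960, neither near a call (limma, smallest adjusted p = 1.00). The M82 WL internodes hold 4 of the 10 libraries, with Solyc04g018080 at 10.26, 14.88, 22.25 and 24.98. In the other M82 WL internode libraries it was at 0 to 3.81. The part of those 4 libraries in the interaction was not tested. The members' interactions ran from -0.89 to 1.61, -1.83 to 1.22, -0.65 to 0.79 and -1.10 to 1.04 log2 units in the order above, with a median SE of 0.36, 0.50, 0.34 and 0.36. For the 8 members the largest SE, in FR pith, was 1.04.

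**Figure D5:**
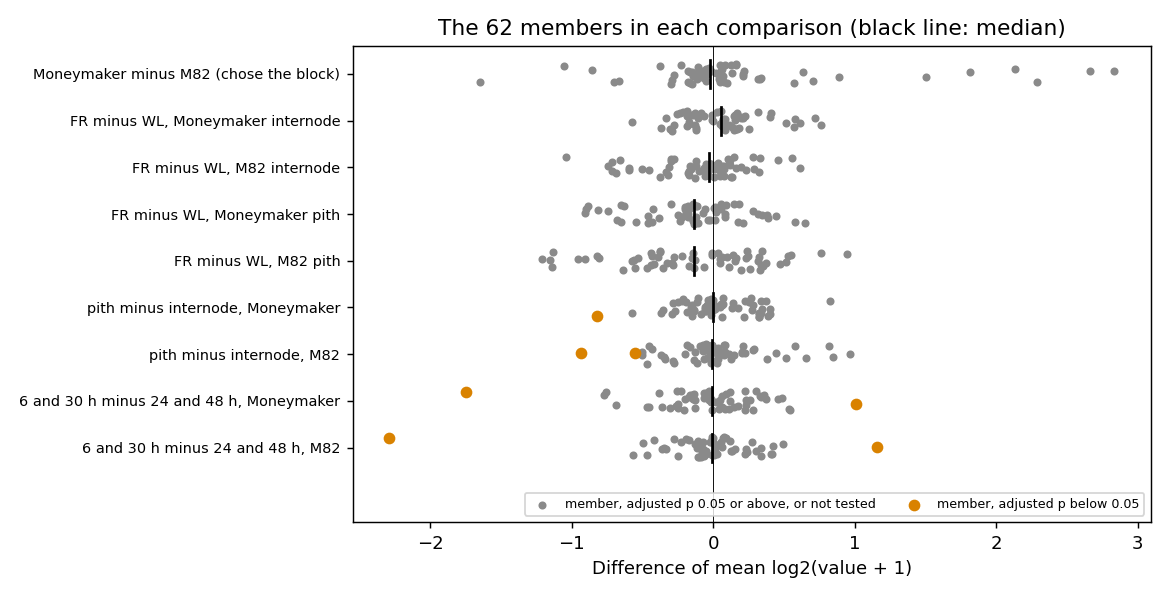
Differences of mean log2(value + 1) for the 62 members, a dot each, with the median as a black line. The Moneymaker minus M82 row has 8 members beyond 1 log2 unit, while in the other rows orange marks the members past an adjusted p of 0.05: 0 in the 4 FR rows, 1 and 2 in the pith rows, and 2 in each clock row.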

How the data were processed

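The values analysed are a scaled signal: the authors deposited gene read counts multiplied by a separate factor for each library, as the values themselves show. Dividing by the value of 1 read gave whole numbers within 0.02 of a read for 100% of nonzero values up to 2000 reads, in all 86 libraries. How the factors were set, which build and annotation were used, and whether counting used strand were not given in the sources used here. Reads went through FastQC, Trim Galore, STAR and featureCounts, per the submitters' processing notes, which give no versions. Groups came from the titles, since the treatment tag of the Moneymaker WL samples reads FR.

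Genes with a mean of at least 1 (19029) were log2-transformed after adding 1 and fitted in R 4.3.3 by limma 3.58.1, with its trend and robust options and a mean for each of 24 groups, Benjamini-Hochberg over all genes, called at an adjusted p below 0.05. Alternatives were edgeR 4.0.16, DESeq2 1.42.0, TMM and DESeq2 scaling, a pseudocount of 0.25, no filter, a replicate block, the compared groups alone, and leaving out libraries. The fit was tested on simulated data. No column lacked a sample.

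Samples are biological replicates by their labels, and the series' design text says that the replicate number in the sample code stands for a batch of plants, which pairs samples by label. In 4 Moneymaker internode libraries at 48 h the number in the title, used here, differs from that in the code. Libraries of opposite light that carry 1 number had residuals with a mean correlation of 0.0499 (26 pairs), against -0.00859 for other numbers (125 pairs). The members, lists and tests were chosen with earlier results of these data known. Named members are the 2 highest and 2 lowest in the cultivar difference, up to 2 in each direction past the threshold in each test, and those at the edges; others named were chosen after their values were seen. Tissue markers were not checked, since identifiers are not paired with names, and for the same reason no sequence is printed.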

Additional observations from a re-analysis of the deposited data

Results flagged for a closer look

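In each of the 12 groups of 4 to 6 libraries, a library was looked for that lay far from the others of its group, for 13 measures (12 members and the mean position over 8 of them), which makes 156 comparisons. With the limit used, about 1 comparison in 20 is flagged by chance where values are normally distributed. Low counts are not normally distributed, and where the others of a group are all at 0, any value above 0 is flagged. The 13 measures are not independent either, since 1 is the mean over 8 of the others. The number found is therefore not weighed against chance. In all 22 were found, 19 of them in libraries nearer the other cultivar by genes outside chromosome 4.

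On the mean position over the 8 members (0 for M82, 1 for Moneymaker), replicate 3 of Moneymaker FR pith at 48 h lay at -0.148, against 0.92 to 1.04 for the others of its group. M82 WL internode replicate 1 at 30 h lay at 0.992, against -0.203 to -0.0234, and M82 WL pith replicate 1 at 30 h at 0.984, against -0.167 to 0.00444.

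Single members stood out in the same libraries. Solyc04g018100 had 55.2 in Moneymaker FR pith replicate 3 at 48 h (others 3.97 to 12.1) and 63.4 in Moneymaker WL internode replicate 3 at 48 h (others 8.46 to 12.7). In M82 WL internode replicate 1 at 30 h, Solyc04g016550 had 19.2 (others 0 to 0.277), Solyc04g016560 had 6.94 (others 0), Solyc04g017620 had 12.03 (others 0 to 1.20), Solyc04g018080 had 24.98 (others 0 to 0.832) and Solyc04g018085 had 4.86 (others 0). In M82 WL pith replicate 1 at 30 h, Solyc04g016550 had 38.9 (others 0 to 1.80), Solyc04g016560 had 7.77 (others 0), Solyc04g017620 had 11.3 (others 0 to 0.531), Solyc04g018085 had 7.77 (others 0 to 0.40) and Solyc04g024960 had 3.53 (others 0). In M82 WL pith replicate 1 at 48 h, Solyc04g016560 had 3.03 (others 0), Solyc04g018080 had 15.9 (others 0 to 0.351) and Solyc04g018085 had 0.757 (others 0). Solyc04g016330 had 29.4 in Moneymaker WL internode replicate 3 at 48 h (others 18.8 to 20.1).

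In libraries that matched their label, Solyc04g018085 had 22.8 in Moneymaker FR internode replicate 4 at 6 h (others 5.82 to 10.01), Solyc04g018100 had 24.7 in Moneymaker FR internode replicate 3 at 24 h (others 6.82 to 11.8), and Solyc04g016330 had 27.9 in Moneymaker FR pith replicate 3 at 30 h (others 12.01 to 13.4).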

How the results depend on the processing

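Of the counts of members over all alternatives, 710 stayed within 1.5 times the reported count and 16 did not. Most of these alternatives only left out 1 library, and many counts were 0 throughout, so the total is no measure of stability. Among the named differences 0 changed sign and 2 lost their call, both of Solyc04g016330 (values in the report); of the differences between cultivars, which have no test, Solyc04g016530 went under 1 log2 unit with the replicate block (-0.97). The count of members lower in Moneymaker, 2, was 4 with a pseudocount of 0.25. With the replicate block it was 1, the count called under FR in M82 pith was 1 against 0, and the count in pith of Moneymaker was 2 against 1; the block changed no other count by more than 1.5 times. The M82 pith count against internodes, 2, was 4 without the 12 libraries against their cultivar or clock label. It was also 4 without these and Moneymaker FR internode replicate 7 at 48 h (a choice made after seeing the data). By edgeR and by DESeq2 it was 5, beside 467 and 655 of all genes. DESeq2 called 1 member under FR in M82 internodes and 2 in M82 pith, against 0, beside 231 and 992 of all genes. Leaving out 1 library at a time gave 0 to 1 members for FR in M82 pith (1 without FR replicate 1 at 30 or 48 h, or WL replicate 2 at 30 or 48 h) and 1 to 3 for pith in M82 (1 without FR replicate 1 at 30 h or FR replicate 2 at 48 h). It gave 2 to 3 for each clock count and did not move the other counts. Scaling shifted the median of all genes by at most 0.0679 log2 units. Depth limits the members at or near 0 in M82, where few reads decide a value, and the 8 cultivar differences were larger without the 10 libraries than with them. The cause of these changes was not tested.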
